A study of Homo sapiens with 6 samples.

Results

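The cyclins that drive the G1, S and M phases were examined in OE-19 cells with and without IGF2BP3 knockdown. The 8 genes, *CCND1*, *CCND2*, *CCND3*, *CCNE1*, *CCNE2*, *CCNA2*, *CCNB1* and *CCNB2*, were taken by gene symbol from a count table of 60480 identifiers. All 8 passed the filter on low counts and were among the 19778 genes tested.

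OE-19 is an established cell line of adenocarcinoma of the esophagogastric junction (AEG), and IGF2BP3 is an RNA-binding protein that reads the m6A mark. RNA-seq of poly(A) RNA compared 3 control libraries with 3 libraries of cells with shRNA knockdown of IGF2BP3 (IGF2BP3 KD). The control libraries are labelled as control knockdown with shControl, but their count columns are named Puro. The labels do not explain that name or say what the control vector carried. Both groups were the same line, grown in the same serum-containing RPMI1640 medium. The labels give neither the number and sequences of the hairpins nor whether the libraries came from separate cultures. The p-values therefore measure the spread between these libraries, which may be technical. *IGF2BP3* fell from 108 ± 2.92 to 13.3 ± 0.996 CPM (SD, n = 3 libraries per group), which is 12.2% of control. CPM are read counts scaled to the same library size, with TMM factors that correct for differences in library composition.

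Total counts lay between 53453621 and 70026203 per library. The 12 genes listed as columnar epithelial markers summed to 18742 to 19759 CPM in control and 20433 to 20868 CPM in IGF2BP3 KD libraries. Most of this came from *ERBB2*, so the sums mainly reflect that gene. Of these 12 genes, *KRT8* averaged 2627 CPM and *KRT7* 3.51 CPM in control libraries, and *CDX1* was at 0 and *KRT20* under 1 CPM in every library. Of 8 fibroblast markers, 7 were under 1 CPM in every library, with *COL1A2* and *LUM* at 0, and the list summed to 21.2 to 24.6 CPM in control and 29.9 to 34.4 CPM in IGF2BP3 KD libraries. Of 6 leukocyte markers, 4 were under 1 CPM in every library, with *CD3E* and *MS4A1* at 0, and the sums were 33.4 to 38.8 and 49.4 to 54.8 CPM. These last sums came almost wholly from *COL1A1* and *CD68*. All 4 endothelial markers stayed under 1 CPM. The part of these marker genes in the cyclin values was not tested.

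Cyclins are the regulatory subunits of cyclin-dependent kinases (CDKs), and their rise and fall moves a cell through division. D-type cyclins bind CDK4 and CDK6 in G1 in response to growth signals, and E-type cyclins then bind CDK2 and carry the cell into S phase. Cyclin A2 acts with CDK2 and CDK1 in S and G2, and the B-type cyclins bind CDK1 and bring the cell into mitosis. Transcription of *CCNE1* and *CCNE2* is driven by E2F factors, while promoters of *CCNA2*, *CCNB1* and *CCNB2* are textbook examples of genes read through CCAAT boxes, which bind NF-Y, and a cell cycle homology region (CHR), which binds the MuvB complexes.

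The promoter sequences are shown because CCAAT letters stood in the windows of all 3 S and M phase cyclins, of which *CCNB1* was called lower and *CCNA2* and *CCNB2* were not. RefSeq windows from 250 bases before to 50 bases after a gene start (GRCh38.p14) were available for 5 of the 8 cyclins, with 3 windows for *CCND3* and 1 for each of the others. Both strands were searched for CCAAT, for the CHR as TTTGAA or CTTGAA, for an E2F site as TTTGGCGC or TTTCCCGC, and for the cAMP response element (CRE) as TGACGTCA. Of 21613 windows over all genes, CCAAT stood in 34.9%, a CHR in 20.0%, an E2F site in 2.83% and a CRE in 2.29%. Each sequence below reads 5′ to 3′ on the gene's strand, capitals mark the motif, and ATTGG is CCAAT on the opposite strand.
CCNB2 CCAAT, chr15:59105014-59105043 (+): aagaaaattcagCCAATgagagtgcgagag
CCNB2 CCAAT, chr15:59105047-59105076 (+): atcttgtgttggCCAATgagaacagcgacc
CCNB2 CCAAT, chr15:59105080-59105109 (+): gcgcagggccgcCCAATggggcgcaagcga
CCNB1 CCAAT, chr5:69167051-69167080 (+): gaccggcagccgCCAATgggaagggagtga
CCNB1 CCAAT, chr5:69167083-69167112 (+): gccacgaacaggCCAATaaggagggagcag
CCNA2 CCAAT, chr4:121823922-121823951 (-): gcgagcgctttcATTGGtccatttcaatag
CCNB2 CHR, chr15:59105105-59105134 (+): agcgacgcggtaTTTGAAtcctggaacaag
CCNA2 CHR, chr4:121823894-121823923 (-): agtcgcgggataCTTGAActgcaagaacag
CCNA2 CRE, chr4:121823946-121823975 (-): gtcgccttgaaTGACGTCAaggccgcgagc

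Counted from the RefSeq gene start, the CCAAT boxes of *CCNB2* shown began at -120, -87 and -54, those of *CCNB1* at -87 and -55, and that of *CCNA2* at -56. *CCNB2* held another CCAAT at -244, giving it 4 in all. The CHR letters stood at -29 in *CCNB2* and at -28 in *CCNA2*, and the window of *CCNB1* held none. *CCNA2* held further CHR letters at -87, directly before the CRE at -81. The 3 windows of *CCND3* held 2 CCAAT boxes and none of the other motifs, and the window of *CCNE1* held none of these letters. A match is a description of the letters and not a measured binding site.

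Of the 8 cyclins, 4 fell and 1 rose in IGF2BP3 KD cells, and 3 did not pass the test (quasi-likelihood test of edgeR, p-values adjusted over 19778 genes by the Benjamini-Hochberg method, threshold 0.05). Over all tested genes 10.6% were lower and 9.87% higher by the same test, 20.4% in either direction. Among the 9857 genes that average 10 CPM or more, as all 8 cyclins do, 19.3% were lower and 16.5% higher. The genes that fell were *CCNE2*, *CCNE1*, *CCNB1* and *CCND1*, and the gene that rose was *CCND3*. The median log2 fold change of the 8 was -0.12, against 0.01 over all tested genes. In 5 of the 8 the control and IGF2BP3 KD libraries did not overlap, as in 35.8% of all tested genes, and in 4 of them with IGF2BP3 KD lower, as in 17.8%. The shares without overlap among genes at 10 CPM or more were not computed and may differ. In RNA from bulk cells, fewer cells in a phase and less of the mRNA per cell cannot be told apart, and this holds for each cyclin below. All levels given are of mRNA, and cyclin protein was not part of these data.

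**Figure D1:**
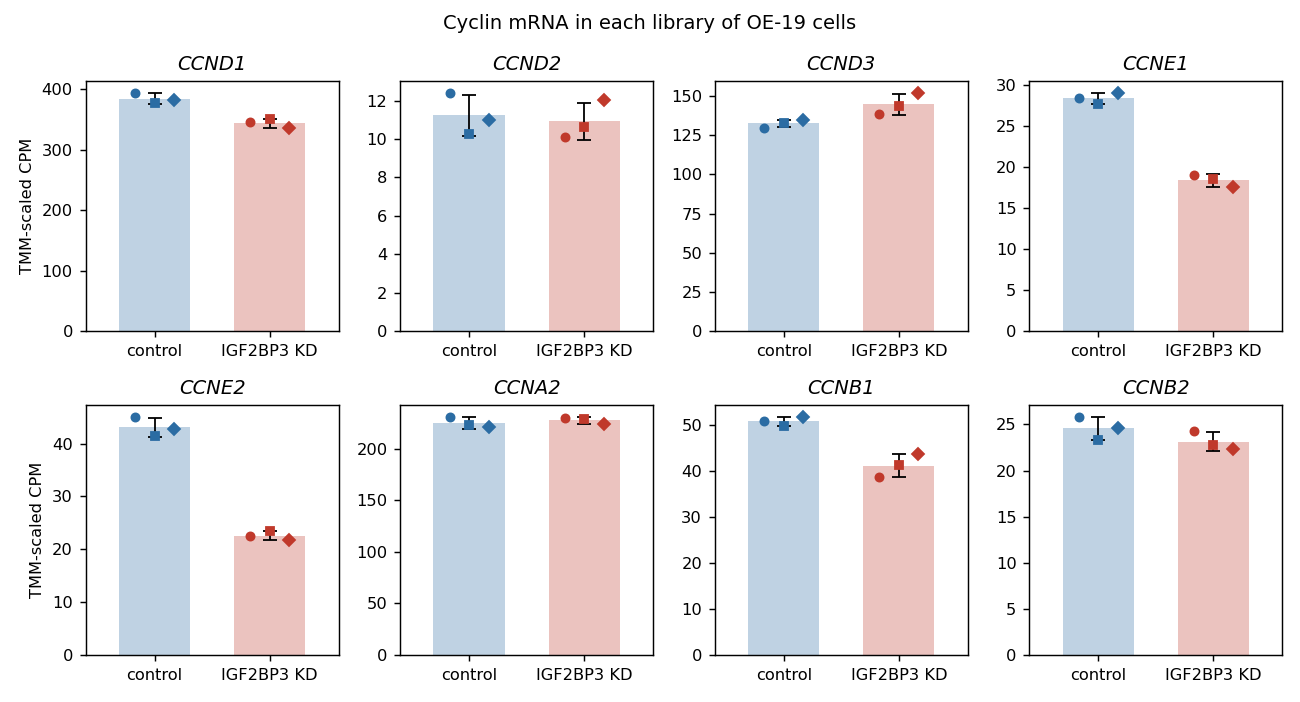
TMM-scaled CPM (vertical axes, each from 0) of the 8 cyclins in control and IGF2BP3 KD libraries, with bars for the mean of 3 libraries, error bars for the SD, and circle, square and diamond for libraries 1, 2 and 3. The groups lie far apart for *CCNE1* and *CCNE2*, are separate by smaller steps for *CCNB1*, *CCND1* and *CCND3*, and overlap for *CCND2*, *CCNA2* and *CCNB2*.

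The E-type cyclins showed the largest changes of the 8. *CCNE1* (ENSG00000105173, chr19:29811991-29824312 in hg38, plus strand) encodes cyclin E1, the CDK2 partner of the G1-S transition. It measured 28.4, 27.6 and 28.9 CPM in control libraries 1 to 3 and 19.0, 18.6 and 17.5 CPM in the corresponding IGF2BP3 KD libraries. No IGF2BP3 KD library reached the lowest control library. *CCNE1* fell by 0.63 on the log2 scale (SE 0.06, 95% interval -0.76 to -0.49, edgeR adjusted p = 4.26e-05), a change of -35.2%, and ranked 371 of all tested genes by p.

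*CCNE2* (ENSG00000175305, chr8:94879770-94896678, minus strand) encodes cyclin E2, a close relative of cyclin E1 with the same kinase partner. Control libraries held 3090, 2893 and 2502 counts and IGF2BP3 KD libraries 1219, 1453 and 1371 counts. The lowest control library thus held more *CCNE2* counts than the highest IGF2BP3 KD library, before any scaling. The 95% interval of the log2 fold change ran from -1.06 to -0.80, and *CCNE2* ranked 97 by p and 432 from the lowest log2 fold change among all tested genes. The change of -47.6% left 52.4% of the control level. Of the exon bases of *CCNE2*, 37.0% are also exon of *INTS8*, an Integrator subunit gene on the opposite strand, which itself was lower in IGF2BP3 KD cells (log2 fold change -0.21, edgeR adjusted p = 0.00383). The library kit keeps the strand, but the strand setting of the counting is not given in the sources used here. Reads from the shared bases may be missing from the *CCNE2* counts, or *INTS8* reads may be among them, and the share is unknown. *CCNE1* shares exon bases with no annotated gene.

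The D-type cyclins did not move together. *CCND1* (ENSG00000110092, chr11:69641156-69654474, plus strand) encodes cyclin D1, the main G1 cyclin of many epithelial cancers, and it was the most abundant of the 8 by CPM. Its levels were 394, 377 and 382 CPM in control libraries and 346, 350 and 336 CPM in IGF2BP3 KD libraries. The libraries were fully separated, by a small step. *CCND1* fell by 0.16 on the log2 scale (SE 0.03, 95% interval -0.22 to -0.10, edgeR adjusted p = 0.00193), a change of -10.5%. *LTO1* covers 10.4% of its exon bases on the opposite strand and was not called (log2 fold change -0.09, edgeR adjusted p = 0.345).

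*CCND3* (ENSG00000112576, chr6:41934934-42050357, minus strand) encodes cyclin D3. Control libraries measured 130, 133 and 135 CPM and IGF2BP3 KD libraries 138, 144 and 152 CPM. Every IGF2BP3 KD library was above every control library, the lowest of them by little. *CCND3* rose by 0.13 on the log2 scale (SE 0.04, 95% interval 0.04 to 0.21, edgeR adjusted p = 0.0430), a change of 9.21%. This call is the least secure of the 5. It was lost in 5 of the 6 fits that left out 1 library, with adjusted p from 0.0890 to 0.180, and kept without IGF2BP3 KD replicate 1 (adjusted p = 0.0309). It was also lost without a filter on low counts (0.12, adjusted p = 0.145).

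*CCND2* (ENSG00000118971, chr12:4269771-4305353, plus strand) encodes cyclin D2 and had the lowest level of the 8, at 12.4, 10.3 and 11.0 CPM in control libraries and 10.1, 10.6 and 12.0 CPM in IGF2BP3 KD libraries. The groups overlapped. The log2 fold change was -0.04 (SE 0.11, edgeR adjusted p = 0.858), with a 95% interval from -0.27 to 0.19. The interval of *CCND2* is the widest of the 8, and changes from -17.2% to 14.4% lie within it. On the same strand, 12.5% of its exon bases also belong to ENSG00000285901, which had 0 counts in every library, so reads that fall in both genes may be missing from the *CCND2* counts.

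The mRNA of cyclin A2, the S and G2 cyclin, stayed close to its control level. *CCNA2* (ENSG00000145386, chr4:121816444-121823883, minus strand) measured 231, 223 and 221 CPM in control libraries and 230, 229 and 224 CPM in IGF2BP3 KD libraries. The 2 ranges covered nearly the same levels. The log2 fold change was 0.02 (SE 0.03, edgeR adjusted p = 0.768), and its 95% interval corresponds to a change between -3.32% and 5.87%. *EXOSC9*, an exosome subunit gene on the opposite strand, covers 9.24% of the exon bases of *CCNA2* and was not called (log2 fold change -0.19, edgeR adjusted p = 0.116).

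Of the B-type cyclins, *CCNB1* fell and *CCNB2* did not pass the test. *CCNB1* (ENSG00000134057, chr5:69167135-69178245, plus strand) encodes cyclin B1, the CDK1 partner that moves to the nucleus at mitotic entry. It measured 50.8, 49.7 and 51.8 CPM in control libraries and 38.6, 41.2 and 43.6 CPM in IGF2BP3 KD libraries, with no overlap. *CCNB1* fell by 0.30 on the log2 scale (SE 0.06, 95% interval -0.43 to -0.18, edgeR adjusted p = 0.00290), a change of -18.9%. Its spread over IGF2BP3 KD libraries (SD 2.51 CPM) was larger than over control libraries (SD 1.02 CPM), and the change was still larger than both.

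*CCNB2* (ENSG00000157456, chr15:59105126-59125045, plus strand) encodes cyclin B2, which is bound mainly to the Golgi. Its libraries measured 25.8, 23.3 and 24.6 CPM in control and 24.3, 22.8 and 22.3 CPM in IGF2BP3 KD cells. One IGF2BP3 KD library lay among the control libraries and the others just below them. The log2 fold change was -0.09 (SE 0.07, 95% interval -0.24 to 0.06, edgeR adjusted p = 0.431). Neither *CCNB1* nor *CCNB2* shares exon bases with another annotated gene, and the annotated pseudogene *CCNB2P1* had 0 to 5 counts per library.

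**Figure D2:**
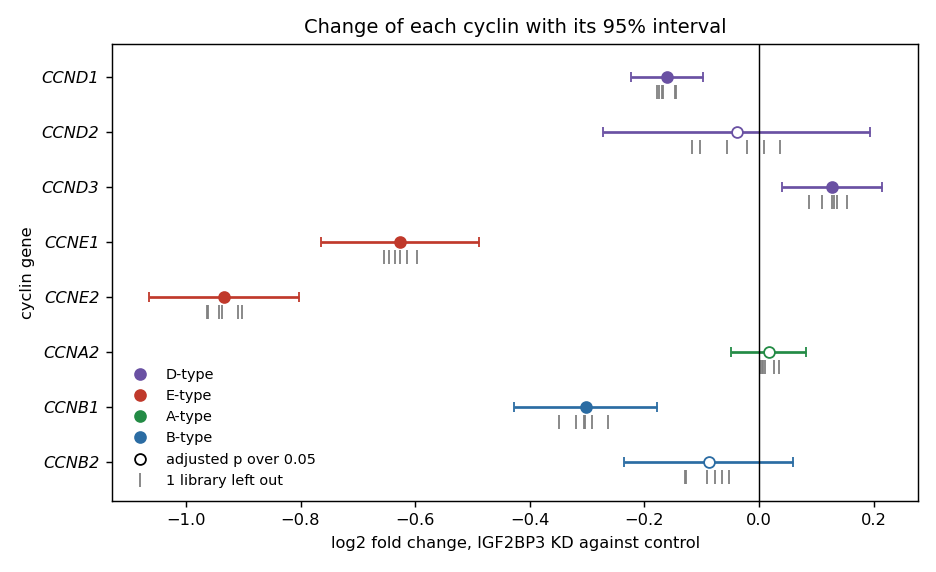
Log2 fold change of each cyclin, IGF2BP3 KD against control (horizontal axis), with its 95% interval; filled circles passed the test, open circles did not, colors give the cyclin type and grey ticks the 6 fits that left out 1 library. The intervals of *CCNE1* (-0.76 to -0.49) and *CCNE2* (-1.06 to -0.80) lie apart from those of the other 6 cyclins, and the grey ticks of *CCND2* fall on both sides of 0.

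To compare cyclins within the same libraries, log2 ratios were taken for 7 pairs chosen by role, since such a ratio does not depend on library scaling. In 6 of the 7 pairs the control and IGF2BP3 KD libraries did not overlap. The same held for 35.8% of single genes, and the share over other gene pairs was not computed. Several pairs share a gene, so the 6 are not independent results. With 3 libraries against 3, the two-sided exact permutation test cannot go below p = 0.1, which these 6 pairs reached, and the adjusted value over the 7 pairs was 0.117 in this exact test. No ratio can therefore fall under 0.05 in this test.

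The log2 ratio of *CCNE2* over *CCNE1* was 0.67, 0.59 and 0.56 in control libraries and 0.25, 0.33 and 0.31 in IGF2BP3 KD libraries, with every IGF2BP3 KD library below every control library and a mean difference of -0.31. The ratio of *CCND1* over *CCND3* moved from 1.54 ± 0.06 to 1.25 ± 0.09 (mean ± SD, n = 3), a difference of -0.29. That of *CCNB1* over *CCNB2* moved from 1.05 ± 0.06 to 0.83 ± 0.15, a difference of -0.22. These 3 pairs each hold cyclins of the same type, and in each the libraries of the 2 groups were separate.

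Between types, *CCNA2* over *CCNB1* rose by 0.32 and *CCNE2* over *CCNB1* differed by -0.63. *CCNE1* over *CCND1*, the G1-S cyclin against the main G1 cyclin, went from -3.79, -3.77 and -3.72 to -4.19, -4.24 and -4.26, a difference of -0.47. *CCND2* over *CCND3* overlapped between groups (difference -0.17, exact permutation p = 0.2). Leaving out any 1 library kept the direction of all 7 ratios, but the difference in *CCNB1* over *CCNB2* was -0.14 without IGF2BP3 KD replicate 1, and that in *CCND2* over *CCND3* was -0.08 without control replicate 1.

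**Figure D3:**
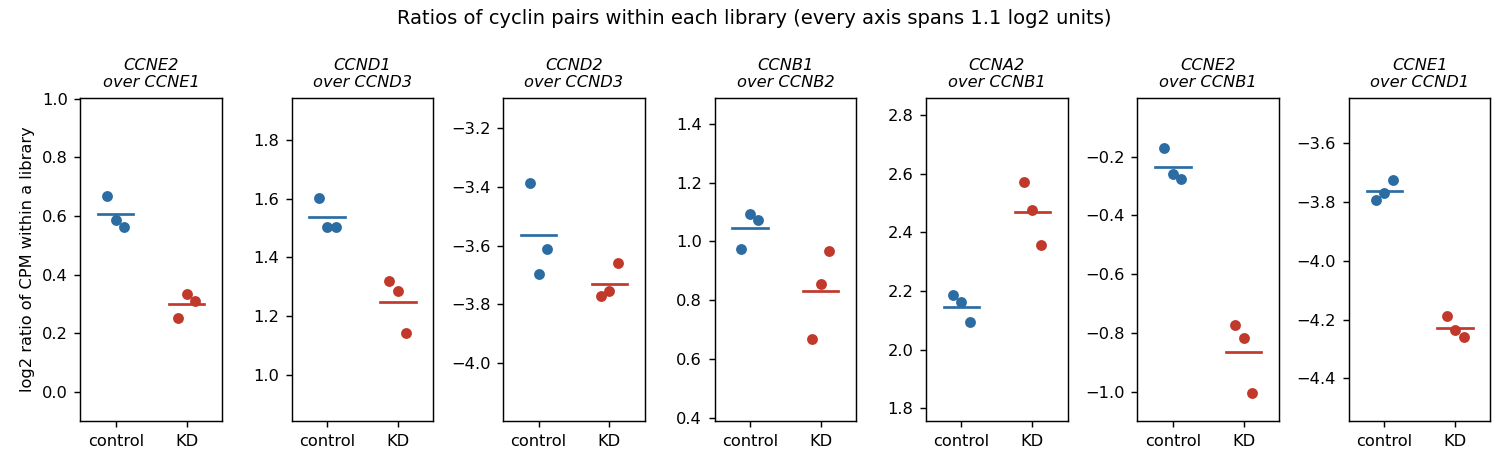
Log2 ratio of the CPM of each cyclin pair within each library (vertical axes, all spanning the same number of log2 units), with points for libraries and lines for group means. Control and IGF2BP3 KD libraries are separate in every pair except *CCND2* over *CCND3*, and the widest gap is that of *CCNE2* over *CCNB1* (difference -0.63).

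Levels of different cyclins were compared as CPM per kilobase of annotated exon, which removes the advantage of long genes. By all annotated exon bases, *CCNA2* (81.8 ± 1.98) and *CCND1* (80.8 ± 1.81) led in control cells, and their ranges over libraries overlapped. *CCND3* (23.0), *CCNB1* (20.9), *CCNE1* (11.5), *CCNE2* (9.81), *CCNB2* (8.93) and *CCND2* (1.41 CPM per kilobase) followed, and no other neighbors in this order overlapped. OE-19 cells thus held far less mRNA of *CCND2* than of the other D-type cyclins on this scale.

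By all annotated exon bases, the order by CPM per kilobase in IGF2BP3 KD cells changed at places held by E-type cyclins. *CCNE1* (7.46) and *CCNE2* (5.14) stood below *CCNB2* (8.40), which both had exceeded in control cells. *CCNA2* (82.8) was separate from *CCND1* (72.2 CPM per kilobase), and no neighbors overlapped. *CCND2* remained the lowest, at 1.37 CPM per kilobase.

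The exon length matters for parts of this order. *CCND3* has 23 annotated transcripts with 5761 exon bases in all, but its canonical transcript has 2026 bases, and with the latter its control level was 65.4 CPM per kilobase instead of 23.0. With canonical lengths *CCND1* (90.7) led *CCNA2* (81.8) in control cells, *CCNB2* (16.5) and *CCNE2* (16.1) overlapped, and *CCNE1* (14.5 CPM per kilobase) stood below both. In IGF2BP3 KD cells *CCNA2* (82.8) and *CCND1* (81.2 CPM per kilobase) overlapped on canonical lengths. *CCNB2* (15.5 CPM per kilobase) stood above both E-type cyclins there, as its mean already had in control cells. *CCNE2* was then above *CCNE1* in control cells and below it in IGF2BP3 KD cells (8.44 and 9.39 CPM per kilobase), whereas by all exon bases it was below in both groups. Of the exon bases of *CCNE2*, 37.0% are shared with *INTS8*, and reads there may be missing or added. The place of *CCNE2* beside *CCNE1* and the E-type sums and shares below carry this limit. The place of *CCND2* at the bottom held on both lengths.

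**Figure D4:**
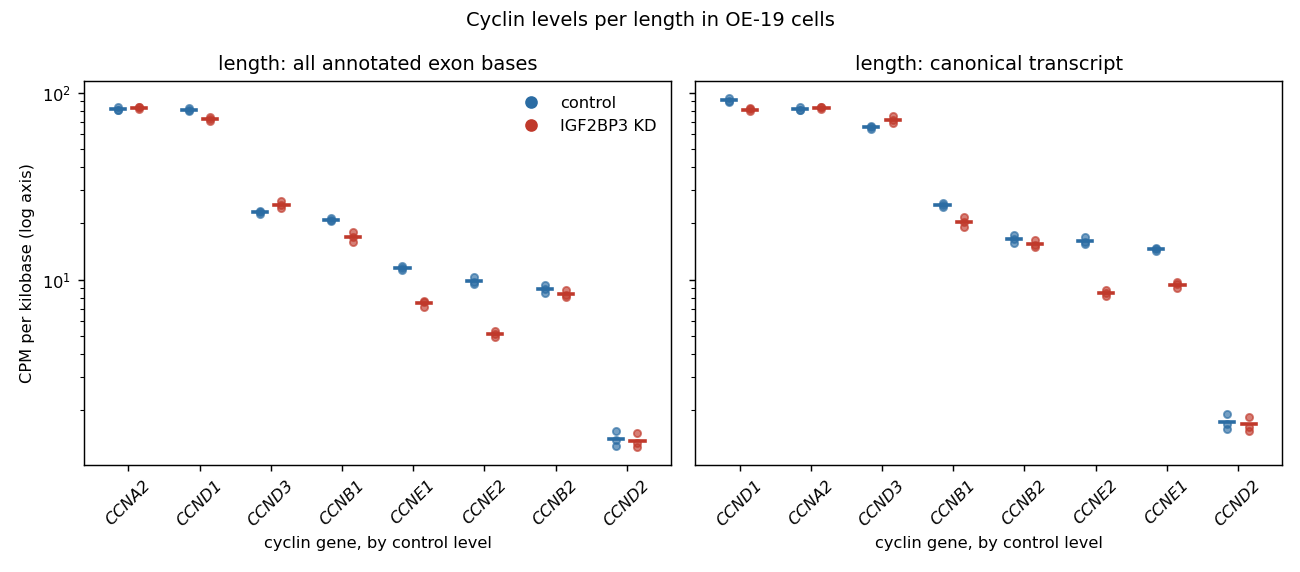
CPM per kilobase (log axis) of each cyclin in control and IGF2BP3 KD libraries, ordered by control level, with length taken as all annotated exon bases (left) or the canonical transcript (right); points are libraries and lines group means. *CCNA2* and *CCND1* are highest and *CCND2* lowest on both lengths, and *CCND3* moves from 23.0 to 65.4 CPM per kilobase in control cells with the canonical transcript.

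Summed by type in CPM per kilobase of all exon bases, the E-type cyclins went from 21.3 ± 0.580 to 12.6 ± 0.458, a ratio of 0.591. The B-type sum went from 29.8 ± 0.765 to 25.3 ± 0.674 (ratio 0.850) and the D-type sum from 105 ± 1.62 to 98.7 ± 1.04 (ratio 0.939), while the A-type level had a ratio of 1.01. With canonical lengths the ratios were 0.583 for E-type, 0.863 for B-type and 0.977 for D-type cyclins, so the type with the deepest fall was the same.

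Within types the makeup shifted. By all annotated exon bases, *CCNE2* made up 46.0% ± 0.952 of the E-type sum in control and 40.8% ± 0.713 in IGF2BP3 KD libraries (SD, n = 3). *CCND1* went from 76.8% ± 0.584 to 73.2% ± 1.33 of the D-type sum, and *CCND3* from 21.9% to 25.4%. *CCNB1* made up 69.0%, 70.7% and 70.4% of the B-type sum in control libraries and 64.3%, 67.2% and 68.9% in IGF2BP3 KD libraries, the highest of which lay just under the lowest control library. The level of each share depended on the length used. With canonical lengths *CCNE2* went from 52.7% to 47.3% of the E-type sum. *CCND1* then went from 57.5% to 52.6% of the D-type sum, and *CCND3* from 41.4% to 46.3%. These shares hold the same information as the ratios of pairs and are no further test.

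The 3′ UTRs of the canonical transcripts (GENCODE v44 on hg38) were searched for TGGAC, the DNA form of the UGGAC word that the study gives for sites bound by IGF2BP3. It occurred 7 times in *CCND2*, 2 times in *CCND1* and 1 time in *CCNE2*, and not in the other 5 cyclins, against 61.4% of 13939 tested coding genes that held it. The 3′ UTR of *CCND2* was also the longest of the 8, with 5344 bases, and that of *CCNB2* the shortest, with 168 bases. Of 3 words of 7 bases that earlier work on these data had picked out, GATTACT and then ATTACTA and ACACATC, *CCND1* held GATTACT and no other cyclin held any. GATTACT stood in 7.69% of the coding genes. Since the words came from these same data, the match in *CCND1* is a description of the letters and no test. It is shown because it is the only such word in the 8 genes, at base 2176 of the 3192 bases of the 3′ UTR, with the word in capitals.
CCND1 3′ UTR, chr11:69653448-69653474 (+): gacttaatgtGATTACTgctctattcc

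For the cyclins, the genes most like each were taken as those with the highest Pearson r in log2 CPM over the 6 libraries, among the same 9857 genes. For *CCNE2* these were *MCM6*, a subunit of the replicative helicase (log2 fold change -0.72), and *NUP58*, a nuclear pore gene (-0.59). For *CCNE1* they were *SUCO* (-0.48) and *ARCN1*, a coatomer subunit gene (-0.41), and for *CCNB1* they were *ACIN1* (-0.17) and *CHD8*, a chromatin remodeler gene (-0.13). *CCND1* was most like *RBBP9* and *SERTAD4*, and *CCND3* most like *MRPL43*, a mitochondrial ribosomal gene, and *GCAT*. For *CCNA2* and *CCND2*, which did not pass the test, the genes were *LANCL1* and *RIN1* (*CCNA2*) and *SNRNP35* and *MAGI3* (*CCND2*). All r lay between 0.981 and 1.00, the 6 points share the split into groups, and with so many genes values this high are a description only.

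The other genes of the cyclin pathway were read from 8 lists, whose counts stand beside 10.6% lower and 9.87% higher over all tested genes, and 19.3% and 16.5% among those that average 10 CPM or more. Among the CDKs and their small partners, 2 of 8 fell (25.0%) and 1 rose (median log2 fold change -0.06). *CDK4*, the kinase of D-type cyclins, fell from 80.2 ± 0.885 to 56.1 ± 1.81 CPM (log2 fold change -0.51, edgeR adjusted p = 1.23e-05), a deeper fall than that of any D-type cyclin by point estimate. *CDK2*, the partner of cyclins E and A, fell by 0.20 (edgeR adjusted p = 0.0189), and *CDK6* rose by 0.10 (edgeR adjusted p = 0.0365). *CDK1*, the partner of cyclins A and B, had a log2 fold change of -0.10 (edgeR adjusted p = 0.271).

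Of the CDK inhibitors, 1 of 8 fell, *CDKN2B* (-0.48, edgeR adjusted p = 0.00151), and none rose (median 0.08). The 12.5% that fell stands against 10.6% of all tested genes and 19.3% of those at 10 CPM or more. *CDKN1A*, which encodes p21, and *CDKN1B*, which encodes p27, had log2 fold changes of 0.08 and 0.13 (edgeR adjusted p = 0.210 and 0.140). Of the 13 genes of E2F factors, their dimer partners and pocket proteins, 6 fell (46.2%, against 10.6% of all tested genes and 19.3% of those at 10 CPM or more) and 1 rose, *TFDP1* (median -0.12). *E2F6* (-0.70), *E2F2* (-0.55), *E2F1* (-0.58) and *E2F3* (-0.59) had the smallest p among them, with edgeR adjusted p of at most 0.000876. By point estimate these changes lie near that of *CCNE1* and are smaller than that of *CCNE2*. *RB1* had a log2 fold change of 0.02 (edgeR adjusted p = 0.754).

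Of 10 regulators of G2/M cyclin transcription, 20.0% were lower, close to the 19.3% of genes at 10 CPM or more. The 2 that fell were *NFYA*, a subunit of NF-Y (231 ± 3.25 to 133 ± 2.32 CPM, log2 fold change -0.79, edgeR adjusted p = 3.43e-08), and *LIN54*, the MuvB subunit that binds the CHR (-0.20, edgeR adjusted p = 0.0199). *NFYB* and *NFYC*, which encode the other NF-Y subunits, were not called (0.20 and -0.06, edgeR adjusted p = 0.149 and 0.577). The 3 cyclin genes with CCAAT boxes shown above stood at log2 fold changes of -0.30 (*CCNB1*), -0.09 (*CCNB2*) and 0.02 (*CCNA2*). *CCND3*, whose windows held 2 CCAAT boxes, stood at 0.13. A link between these values and the change of *NFYA* was not tested. Of 21 regulators of D-type cyclin transcription, 4 fell and 1 rose (median -0.04), and the 19.0% that fell is close to the same 19.3%. *JUN* (-0.44), *FOSL2* (-0.23) and *ETS2* (-0.22) fell and *ETS1* rose (0.29).

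Of 12 genes that switch the cyclin B-CDK1 kinase on and off, 6 fell (against 10.6% of all tested genes and 19.3% of those at 10 CPM or more) and none rose (median -0.22). *WEE1*, the kinase that inhibits CDK1, went from 89.9 ± 3.06 to 50.1 ± 2.20 CPM (log2 fold change -0.84), and *CDC25A*, the phosphatase that activates CDKs, fell by 0.57. *ARPP19* (-0.38) and *GTSE1* (-0.39) fell by amounts close to that of *CCNB1*. Genes with opposite effects on the kinase were thus among those that fell.

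Of 21 tested genes of cyclin ubiquitination and its reversal, 6 fell (28.6%, against 10.6% and 19.3%) and none rose (median -0.14). *CUL4A* (-0.50), the cullin of a ligase for several G1 regulators, *UBE2S* (-0.26), which extends ubiquitin chains for the anaphase-promoting complex, and *CUL1* (-0.20), the cullin of the SCF ligases, fell, and so did the deubiquitinase gene *USP22* (-0.20). Of the 19 other cyclin genes that were tested, 1 fell, *CCNL1* (-0.19), and 3 rose (median -0.03). The 5.26% that fell stands against 10.6% of all tested genes and 19.3% of those at 10 CPM or more. Of all tested genes 9.87% were higher, and 16.5% of those at 10 CPM or more. Some of the 19 average under 10 CPM. The risers were *CCNG1*, a p53 target (40.0 ± 3.62 to 61.9 ± 1.47 CPM, log2 fold change 0.63, edgeR adjusted p = 5.07e-05), *CCNC*, a Mediator kinase cyclin (0.21), and *CCNP* (1.18, at 1.07 and 2.42 CPM). By point estimate, the falls of *CCNE1*, *CCNE2* and *CCNB1* were larger than that of the only other cyclin gene called lower.

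**Figure D5:**
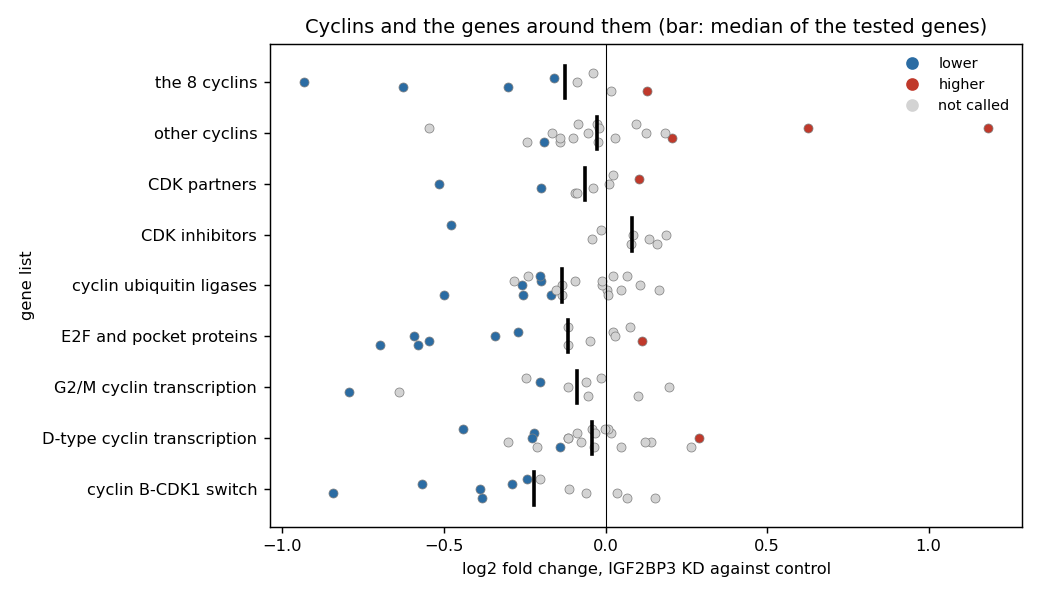
Log2 fold change, IGF2BP3 KD against control (horizontal axis), of the 8 cyclins and of the tested genes of the 8 pathway lists; blue points were called lower, red points higher and grey points neither, and black bars give the median of each list. The medians lie between -0.22 (cyclin B-CDK1 switch) and 0.08 (CDK inhibitors), and *CCNE2* (-0.93) is the lowest point of the plot.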

How the data were processed

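RNA was poly(A)-selected, prepared with a directional kit and sequenced on an Illumina NovaSeq instrument as read pairs of 150 bases. The authors trimmed reads with fastp (named in the submitters' processing notes), mapped them with HISAT2 to hg38 and obtained counts per gene with featureCounts. The deposited values are these counts, without normalization. Versions, annotation release and strand setting are not given in the sources used here.

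Repeated entries (132 of 44 identifiers) were left out. The quasi-likelihood test of edgeR 4.0.16 (R 4.3.3; glmQLFit, glmQLFTest) compared the groups with TMM scaling (factors 0.992 to 1.01), after filterByExpr (count of at least 10, total of at least 15), with Benjamini-Hochberg adjustment over 19778 genes and a threshold of 0.05. The common biological coefficient of variation was 0.148. Intervals are 95%. The fit was tested on simulated data. Between libraries of a group, the chi-square per degree of freedom was 9.86 to 17.6, so none duplicates another. DESeq2 1.42.0, RLE and upper-quartile scaling, other filters, coding genes only, a stricter threshold, a replicate block, each library left out and raw counts plus 0.5 for the ratios were alternatives, and the canonical transcript length was added after the data were seen. The study itself used DESeq2.

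Positions and exon overlaps come from GENCODE v44 on hg38, promoters from RefSeq. Pathway genes named are, in each list, up to 4 called genes with the smallest p. The direct partners *CDK1*, *CDK2*, *CDK4*, *CDK6*, *CDKN1A*, *CDKN1B*, *RB1* and *E2F1* were named as well. *TFDP1*, *NFYB* and *NFYC* were named after their values were seen. The genes most like *CCNB2* are not reported here. The members, lists and words were chosen with earlier results of these data known. Tables and plots were made in Python 3.11.15 with matplotlib 3.10.9, pandas 2.3.3, numpy 2.4.6 and scipy 1.17.1.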

Additional observations from a re-analysis of the deposited data

How the results depend on the processing

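The calls of *CCNE2*, *CCNE1*, *CCNB1*, *CCND1* and *IGF2BP3* kept their direction and their side of the threshold under every alternative run, and 4 cyclins were lower in each. *CCND3* lost its call without a filter on low counts (0.12), where 0 cyclins were higher, as at an adjusted p under 0.01. Over fits that left out 1 library its log2 fold change ranged from 0.088 to 0.15, and the number of higher cyclins from 0 to 1. The value of *CCND2* was 0.036 without control replicate 1 and 0.0081 without IGF2BP3 KD replicate 1, with a range from -0.12 to 0.036 over such fits and no call in any of them. *CCNA2* and *CCNB2* were called in no fit. At an adjusted p under 0.01, 1314 genes were lower and 1098 higher.

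Fits that left out 1 library gave -0.96 to -0.90 for *CCNE2*, -0.65 to -0.60 for *CCNE1*, -0.35 to -0.26 for *CCNB1* and -0.18 to -0.15 for *CCND1*. Libraries with the same number did not deviate together (r -0.104 to -0.0289), so no pairing by number was seen. With 3 libraries per group this does not exclude that libraries of the same number were prepared together. With a replicate block the values were -0.93 (*CCNE2*), -0.63 (*CCNE1*), -0.30 (*CCNB1*), -0.16 (*CCND1*) and 0.13 (*CCND3*), 2026 genes were lower and 1875 higher, and no cyclin's call changed. Levels per kilobase moved with the canonical transcript length for 7 cyclins, all but *CCNA2*. *CCND2* had the fewest counts of the 8 cyclins, at 546 to 849 per library. The causes were not tested.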
